A study of Homo sapiens with 8 samples.

Results

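The enzymes of the tricarboxylic acid (TCA) cycle and of fatty acid oxidation were followed across 4 groups of A549 cells. A549 is an established line grown from a human adenocarcinoma of the lung. The list holds 35 genes, and every probe set that the array annotation ties to 1 of them alone was taken. Of the 35 genes, 34 had such a probe set, with 65 probe sets in all, out of 19775 genes and 41091 probe sets tied to a single gene. The fumarase gene FH had none in the annotation used here and was not analysed here. All cells were transfected, either with a small interfering RNA (siRNA) against steroid receptor coactivator 1 (SRC-1, encoded by NCOA1) or with a control siRNA, and kept for 36 h in medium with 10% dialyzed serum. Each culture then received the same kind of medium with or without glucose, for a time not given in the sources used here. The groups were SRC-1 siRNA in medium with glucose or lacking it, and control siRNA in medium with glucose or lacking it, with 2 arrays each. Per the labels the arrays of a group are biological replicates. Separate cultures or days are not described, so the p-values reflect only how far such arrays vary. All groups share a single cell line, the transfection reagent and the dialyzed serum, and none is untransfected.

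The TCA cycle oxidises the acetyl group of acetyl-CoA in the mitochondrial matrix and hands its electrons to NAD and FAD. Fatty acid oxidation feeds it: a fatty acid is activated to its CoA ester, carried into the matrix as a carnitine ester, and shortened in turns of dehydrogenation, hydration, a further dehydrogenation and thiolysis, each turn releasing acetyl-CoA, NADH and a reduced flavoprotein. Malonyl-CoA, made from glucose-derived citrate, blocks the carnitine step at the protein level, so that cells supplied with sugar burn less fat. SRC-1 binds nuclear receptors, and in mouse liver members of that receptor family switch on many genes of fatty acid oxidation in fasting.

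Values are log2 signals per probe set on 3' expression arrays, so that a difference of 1 is a 2-fold change. For each gene the brightest probe set entered a limma fit of 13584 genes, and a gene was called where its adjusted p was below 0.05 (Benjamini-Hochberg over all genes). Differences of group means are given ± SE, and group means ± SD. Replicate arrays correlated at 0.997 to 0.998, and precision is limited by how few arrays there are. The targeted NCOA1 mRNA had signals of 5.47 and 5.18 with SRC-1 siRNA in glucose, against 8.60 and 8.42 with control siRNA in glucose. Without glucose its signals were 5.22 and 5.09 with SRC-1 siRNA, against 8.34 and 8.24 with control siRNA. The knockdown was 8.94-fold over both media (adjusted p = 8.66e-07, limma). The epithelial keratins KRT7, KRT8, KRT18 and KRT19 averaged between 10.6 and 14.3 over the 8 arrays. Markers of other cell types lay on both sides of the filter of 4.80. PTPRC of leukocytes (3.05), ALB and APOA1 of hepatocytes (3.22 and 4.03) and COL3A1 of fibroblasts (4.36) lay below it. Above it were CD3E (5.50) and CD14 (5.01) of leukocytes, PECAM1 (5.80) and VWF (5.47) of endothelium, and COL1A1 (7.88) and DCN (5.02) of fibroblasts. Of the alveolar markers, NKX2-1 (5.90) and SFTPB (5.97) lay not far above the filter, and SFTPC was higher (7.64). In whole-culture RNA, fewer cells that express a gene and less of its RNA per cell cannot be told apart.

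Glucose was compared with its absence over both siRNAs, 4 arrays against 4. The enzymes moved in both directions and by small amounts: 9 of the 34 were higher with glucose, 8 were lower and 17 were not called. Over all genes tested 55.7% were called, so the called share of these enzymes, 50%, was no larger than that of genes in general. The median difference of the 34 genes was 0.032, beside -0.00035 over all genes, and the median size without regard to sign was 0.13, beside 0.20. Of the 13 TCA cycle genes 5 were higher and 3 lower, and of the 21 fatty acid oxidation genes 4 were higher and 5 lower. HADH stood apart in size and was the only member called with at least 1.5-fold in this comparison, where 14.5% of all genes were. The 3' to 5' signal difference of the GAPDH control probe sets, a sign of RNA quality, was 0.14 to 0.17 with glucose and 0.12 to 0.14 without (exact permutation p = 0.0571, two-sided). For beta-actin it was 0.51 to 0.64 with glucose and 0.41 to 0.54 without (exact permutation p = 0.143). A permutation of 4 arrays against 4 cannot go below p = 0.0286. The part of these RNA quality differences in the glucose results was not tested.

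**Figure D1:**
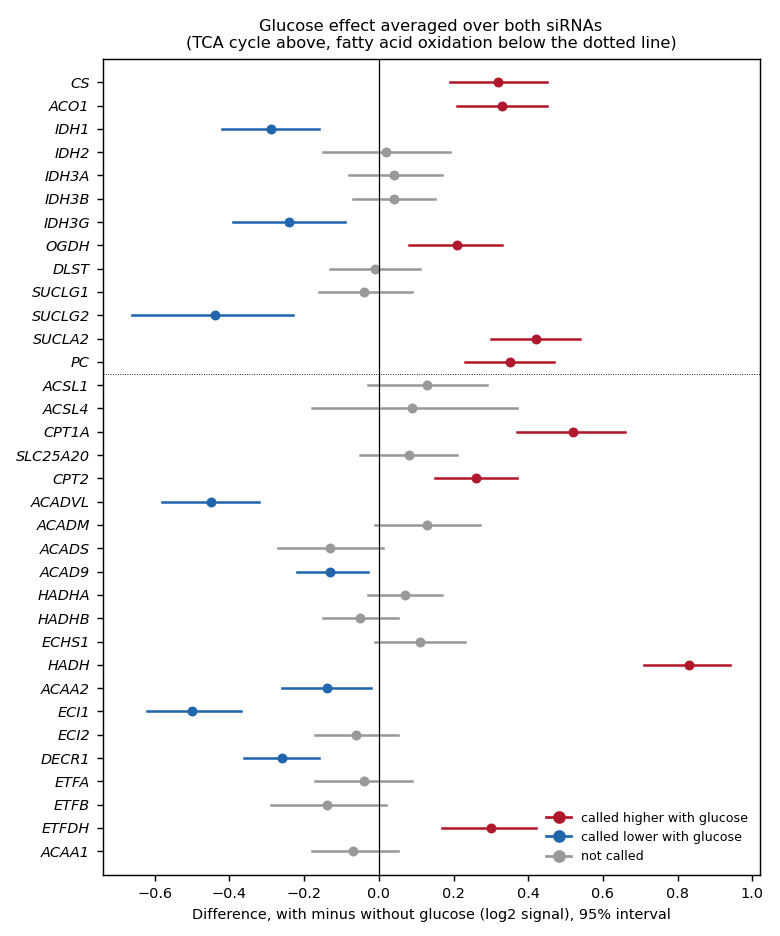
Difference of log2 signal, with minus without glucose and averaged over both siRNAs, for each of the 34 measured enzymes (points) with its 95% interval (lines). Red marks genes called higher with glucose (9), blue those called lower (8) and grey those not called (17), and HADH lies farthest from 0 at 0.83.

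Of the TCA cycle genes, CS, PC and ACO1 were called higher with glucose. Citrate synthase, CS, joins acetyl-CoA to oxaloacetate. Its signals with glucose were 11.63 and 11.64 under SRC-1 siRNA and 11.52 and 11.67 under control siRNA, against 11.33, 11.22, 11.25 and 11.39 without glucose in the same order of siRNAs. The 4 arrays with glucose all lay above the 4 without, and CS was 1.25-fold higher (0.32 ± 0.058, adjusted p = 0.00152). PC, pyruvate carboxylase, replenishes oxaloacetate from pyruvate. It had 7.27 and 7.21 under SRC-1 siRNA and 6.95 and 7.09 under control siRNA with glucose, against 6.78, 6.80, 6.71 and 6.83 without. Again no array overlapped, and PC was 1.27-fold higher (0.35 ± 0.054, adjusted p = 0.00057). ACO1, the cytosolic aconitase that also serves as an iron sensor, had 9.40, 9.42, 9.33 and 9.35 with glucose, against 9.04, 8.99, 9.0 and 9.16 without (0.33 ± 0.051, adjusted p = 0.00061).

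The isocitrate dehydrogenases did not move as a group. IDH1, the cytosolic NADP-dependent enzyme, was lower with glucose. It had 12.53 and 12.63 under SRC-1 siRNA and 12.48 and 12.61 under control siRNA with glucose, against 12.77, 12.91, 12.88 and 12.87 without (-0.29 ± 0.055, adjusted p = 0.00191). All 3 of its probe sets were called lower, between -0.46 and -0.29. Its mitochondrial counterpart IDH2 averaged 8.10 ± 0.16 with glucose and 8.08 ± 0.093 without (SD, n = 4 each) and was not called on the brightest probe set (0.02, 95% interval -0.15 to 0.19). A second IDH2 probe set, dimmer at a mean of 5.94, was called higher (0.52 ± 0.12, adjusted p = 0.00989 over all probe sets). The NAD-dependent enzyme of the cycle is built of a catalytic subunit, IDH3A, and the regulatory subunits IDH3B and IDH3G. IDH3G was lower with glucose (9.25 ± 0.11 with and 9.49 ± 0.034 without, difference -0.24 ± 0.065, adjusted p = 0.0123), and its dimmer probe set gave -0.08 and was not called. IDH3B had a difference of 0.04 (95% interval -0.07 to 0.15) and IDH3A one of 0.04 (-0.08 to 0.17) on their brightest probe sets. The other probe sets of IDH3A gave 0.37 ± 0.057 and 0.27 ± 0.076, both called higher (adjusted p = 0.000923 and 0.0244 over all probe sets). The probe sets of IDH2 and IDH3A therefore do not give a single answer for their genes.

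Further along the cycle, OGDH and DLST encode the first and second components of the oxoglutarate dehydrogenase complex, which makes succinyl-CoA. OGDH had 7.37 and 7.41 under SRC-1 siRNA and 7.26 and 7.06 under control siRNA with glucose, against 7.10, 7.07, 7.06 and 7.06 without. It was called higher (0.21 ± 0.055, adjusted p = 0.0116), although 1 array with glucose and control siRNA lay among those without. Its 2 dimmer probe sets gave -0.16 and -0.10, neither called, and the mean of its probe sets that passed the filter differed by only 0.02. DLST averaged 9.97 ± 0.066 with glucose and 9.98 ± 0.034 without (95% interval of the difference -0.13 to 0.11).

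The sharpest contrast within the cycle lay in succinyl-CoA ligase, the enzyme that splits succinyl-CoA and stores its energy as ATP or GTP. Its alpha subunit, SUCLG1, pairs with SUCLA2 to form the ATP-producing enzyme or with SUCLG2 to form the GTP-producing one. SUCLG1 averaged 11.49 ± 0.086 with glucose and 11.53 ± 0.0078 without and was not called (-0.04, 95% interval -0.16 to 0.09). SUCLA2 had 10.20 and 10.12 under SRC-1 siRNA and 10.11 and 10.09 under control siRNA with glucose, against 9.60, 9.78, 9.70 and 9.76 without. It was 1.34-fold higher (0.42 ± 0.054, adjusted p = 0.000208), and no array overlapped. SUCLG2 had 10.39 and 10.26 under SRC-1 siRNA and 9.94 and 10.19 under control siRNA with glucose, against 10.46, 10.78, 10.54 and 10.77 without. It was 1.36-fold lower (-0.44 ± 0.094, adjusted p = 0.00338), again with no overlap. Of the 4 probe sets of SUCLG2, 3 were called lower, between -0.49 and -0.44, and the last, at a mean of 3.03, gave -0.22. Both of the additional called probe sets have names ending in _x_at, which mark possible cross-hybridization. The brightest SUCLG2 probe set and the only probe set of SUCLA2 end in _s_at. Neither gene was therefore measured once probe sets ending in _s_at or _x_at were left out. SUCLA2 has only 1 probe set, so the opposite moves rest on 1 measurement for SUCLA2.

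**Figure D2:**
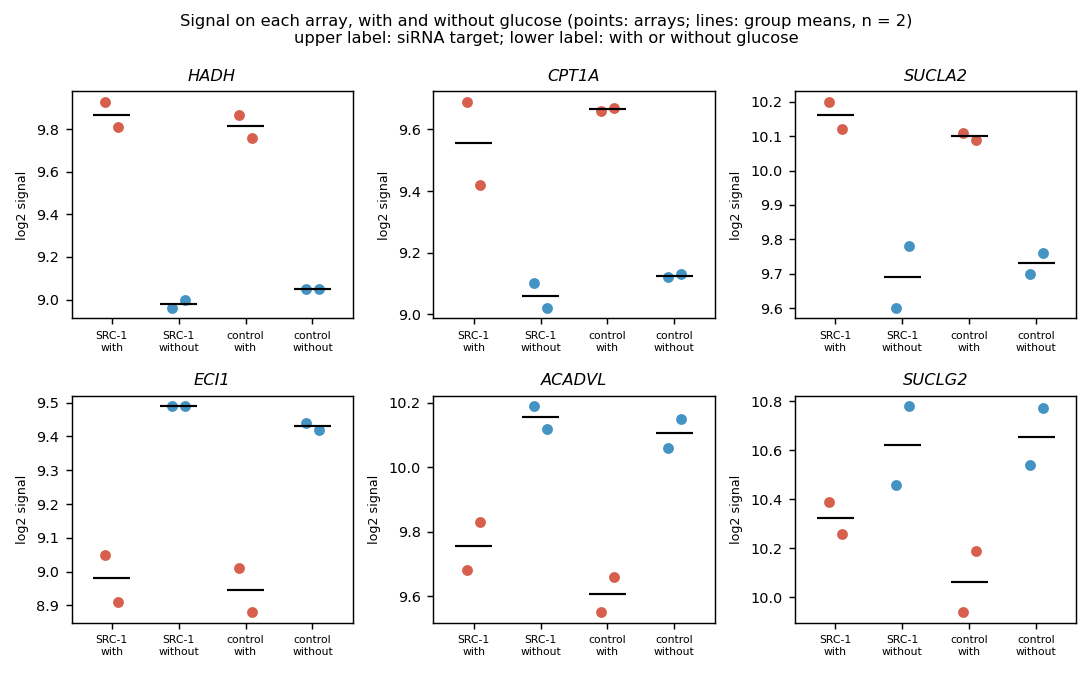
Log2 signal of 6 enzymes on each of the 8 arrays, by siRNA and medium, with red points for arrays with glucose, blue points for those without and a line at the mean of the 2 arrays of a group. HADH, CPT1A and SUCLA2 are higher with glucose and ECI1, ACADVL and SUCLG2 lower, under either siRNA and with no overlap between media.

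Activation and import of fatty acids came next. The long-chain acyl-CoA synthetases ACSL1 (8.78 ± 0.055 with glucose and 8.64 ± 0.13 without) and ACSL4 (8.32 ± 0.15 and 8.23 ± 0.22) were not called. ACSL4 had the widest spread of the members, and its difference of 0.09 has a 95% interval of -0.18 to 0.37. CPT1A, the outer-membrane carnitine palmitoyltransferase and the rate-limiting enzyme of the pathway, was the second largest rise. It had 9.69 and 9.42 under SRC-1 siRNA and 9.66 and 9.67 under control siRNA with glucose, against 9.10, 9.02, 9.12 and 9.13 without. The media did not overlap, and CPT1A was 1.43-fold higher (0.52 ± 0.064, adjusted p = 0.000161). Its other 3 probe sets were dimmer and divided, at 0.35, -0.04 and -0.20, none of them called, and with the mean of all 4 the difference was 0.16. CPT2, the inner-membrane partner that releases the acyl group into the matrix, had 8.06, 8.01, 7.84 and 7.80 with glucose, against 7.61, 7.73, 7.68 and 7.66 without. It was higher by 1.2-fold (0.26 ± 0.048, adjusted p = 0.0018), and its dimmer probe set gave 0.13 and was not called (adjusted p = 0.148 over all probe sets). SLC25A20, the carrier between them, averaged 7.87 ± 0.079 with glucose and 7.79 ± 0.076 without and was not called (95% interval -0.05 to 0.21).

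The acyl-CoA dehydrogenases, which take the opening step of each turn, were lower or not called. ACADVL, which acts on very long chains at the inner membrane, had 9.68 and 9.83 under SRC-1 siRNA and 9.55 and 9.66 under control siRNA with glucose, against 10.19, 10.12, 10.06 and 10.15 without. It was 1.37-fold lower with no overlap (-0.45 ± 0.057, adjusted p = 0.000175). ACAD9, which also helps to assemble respiratory complex I, averaged 8.63 ± 0.044 with glucose and 8.75 ± 0.019 without, and its call was close to the threshold (-0.13 ± 0.042, adjusted p = 0.0309). ACADM, for medium chains, differed by 0.13 (95% interval -0.01 to 0.27) and ACADS, for short chains, by -0.13 (-0.27 to 0.01), and neither was called.

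In the hydration, dehydrogenation and thiolysis steps, HADH was the exception. HADH encodes the soluble 3-hydroxyacyl-CoA dehydrogenase of the matrix, which acts on shorter chains and makes NADH. Its brightest probe set had 9.93 and 9.81 under SRC-1 siRNA and 9.87 and 9.76 under control siRNA with glucose, against 8.96, 9.0, 9.05 and 9.05 without. The gap between the media was larger than the spread within them, and HADH was 1.77-fold higher (0.83 ± 0.051, adjusted p = 3.14e-06). All 3 HADH probe sets were called higher, at 0.83, 0.64 and 0.34, so the direction was shared and the size was not. HADHA and HADHB, the 2 subunits of the trifunctional protein that carries out the same steps for long chains at the membrane, were not called. HADHA averaged 10.44 ± 0.051 with glucose and 10.37 ± 0.031 without (95% interval -0.03 to 0.17). HADHB averaged 11.60 ± 0.032 with glucose and 11.65 ± 0.011 without (-0.15 to 0.05). ECHS1, the short-chain enoyl-CoA hydratase, differed by 0.11 (-0.01 to 0.23). ACAA2, the mitochondrial thiolase, passed narrowly as lower (10.24 ± 0.076 with and 10.37 ± 0.021 without, -0.14 ± 0.052, adjusted p = 0.0488). The peroxisomal thiolase ACAA1 differed by -0.07 (-0.18 to 0.05), and its dimmer probe set was called lower (-0.22, adjusted p = 0.0209 over all probe sets).

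Promoter sequences are shown for HADH, which rose most, for the subunits SUCLA2 and SUCLG2, which moved apart, and for HADHB, whose start site lies 307 bases from that of HADHA on the opposite strand, so that their 250-base windows share 194 bases. They are the 250 bases before the annotated start site, from RefSeq on GRCh38.p14, written 5' to 3' on the strand of the gene. Capitals mark AGGTCA (a nuclear receptor half-site), the NRF1 element (GCGCA and GCGC with any 1 base between), CCAAT and GGGCGG (the GC box) on either strand. For HADH the first of 2 annotated windows is given.
HADH, chr4:107989639-107989888, plus strand: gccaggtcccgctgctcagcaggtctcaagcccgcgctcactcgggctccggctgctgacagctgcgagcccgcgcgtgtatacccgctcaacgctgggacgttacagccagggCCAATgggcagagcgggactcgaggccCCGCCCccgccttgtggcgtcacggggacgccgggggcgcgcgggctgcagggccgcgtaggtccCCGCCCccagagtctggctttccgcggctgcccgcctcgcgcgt
SUCLA2, chr13:48001274-48001523, minus strand: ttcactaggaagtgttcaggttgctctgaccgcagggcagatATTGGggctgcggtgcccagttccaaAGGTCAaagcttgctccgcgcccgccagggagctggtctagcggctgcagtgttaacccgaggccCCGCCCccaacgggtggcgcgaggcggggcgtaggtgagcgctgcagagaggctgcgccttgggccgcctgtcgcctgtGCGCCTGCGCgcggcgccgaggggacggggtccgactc
SUCLG2, chr3:67654613-67654862, minus strand: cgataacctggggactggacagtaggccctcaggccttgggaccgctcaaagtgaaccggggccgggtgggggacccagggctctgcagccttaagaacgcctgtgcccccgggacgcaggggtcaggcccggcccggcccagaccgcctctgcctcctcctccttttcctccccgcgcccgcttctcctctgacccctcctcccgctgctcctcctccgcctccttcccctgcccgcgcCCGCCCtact
HADHB, chr2:26244689-26244938, plus strand: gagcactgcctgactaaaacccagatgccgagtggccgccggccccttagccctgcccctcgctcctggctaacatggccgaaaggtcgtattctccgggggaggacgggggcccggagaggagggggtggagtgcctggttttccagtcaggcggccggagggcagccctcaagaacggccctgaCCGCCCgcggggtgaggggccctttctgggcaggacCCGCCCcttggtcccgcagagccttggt
Of the 34 measured genes 30 had a window in the table, with 41 windows between them. The letters GGGCGG were in 70.7% of these windows, beside 42.6% of all 35116 windows, the NRF1 element in 12.2% beside 5.07%, CCAAT in 24.4% beside 32.0%, and AGGTCA in 7.32% beside 12.1%. The half-site was found for IDH3B, PC and SUCLA2. The longer AAGGTCA, which contains it, was in 2.44% beside 3.44%, and 0 of the 41 windows held TCAAGGTCA (0.319% of all) or a direct repeat of AGGTCA with any 1 base between (0.0171% of all). The remaining motifs searched were CCGGAAGT (7.32% beside 3.42%), CACGTG (2.44% beside 6.34%), TGACGTCA (2.44% beside 1.65%), TTGCATCA (0 windows, 0.772% of all) and TGATGCAAT (0 windows, 0.216% of all). These matches describe letters in the windows and show no binding.

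Enzymes that deal with the double bonds of unsaturated fatty acids included the largest fall. ECI1, the mitochondrial enoyl-CoA isomerase, had 9.05 and 8.91 under SRC-1 siRNA and 9.01 and 8.88 under control siRNA with glucose, against 9.49, 9.49, 9.44 and 9.42 without. It was 1.41-fold lower with no overlap (-0.50 ± 0.054, adjusted p = 7.02e-05). DECR1, the dienoyl-CoA reductase, had 9.45, 9.51, 9.46 and 9.42 with glucose, against 9.76, 9.78, 9.64 and 9.69 without (-0.26 ± 0.045, adjusted p = 0.0011). ECI2, a second isomerase found in mitochondria and peroxisomes, averaged 9.37 ± 0.024 with glucose and 9.43 ± 0.043 without and was not called (95% interval -0.17 to 0.05).

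The electron transfer flavoprotein, made of ETFA and ETFB, collects electrons from the acyl-CoA dehydrogenases and passes them to ETFDH, which delivers them to ubiquinone. ETFDH had 6.98 and 6.99 under SRC-1 siRNA and 6.98 and 6.86 under control siRNA with glucose, against 6.77, 6.59, 6.63 and 6.64 without. It was 1.23-fold higher with no overlap (0.30 ± 0.056, adjusted p = 0.00195), and its other probe set gave 0.28 and was called as well. ETFA averaged 12.11 ± 0.075 with glucose and 12.15 ± 0.066 without (95% interval -0.17 to 0.09). ETFB averaged 10.39 ± 0.15 with glucose and 10.53 ± 0.040 without (-0.29 to 0.02), and neither was called.

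Counted by arrays, 8 members lay wholly above and 9 wholly below with glucose, and 17 overlapped, where 53.9% of all genes did not overlap between the media (28.6% above and 25.3% below). HADHB was among the 9 although it was not called. At the level of probe sets, 26 of 65 were called, 15 higher and 11 lower, beside 33.2% of all 41091 (17.3% higher and 15.9% lower). The probe sets of ACAD9 and ACAA2 were not called in that fit. Of the 19 members with several probe sets, 15 had all of them on the same side of 0. The 4 that did not were ACAA2, ACSL4, CPT1A and OGDH, and no member had probe sets called in opposite directions.

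**Figure D3:**
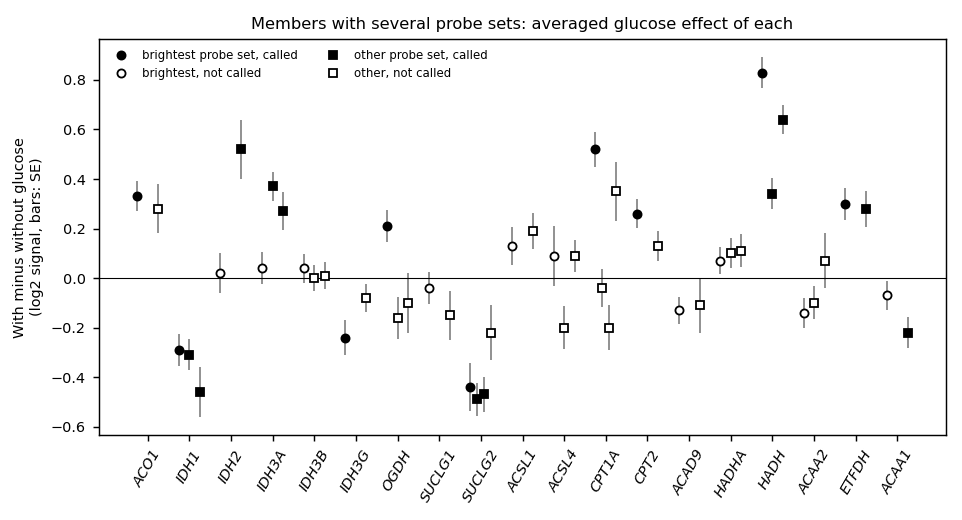
Averaged glucose effect (log2 difference, with minus without glucose, bars SE) of every probe set of the 19 members that have more than 1, with circles for the brightest probe set, squares for the others and filled symbols where the probe set was called. All 3 probe sets of HADH and all 3 of IDH1 are called in a shared direction, whereas those of CPT1A spread from -0.20 to 0.52.

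The effect of glucose was also taken within each siRNA, on arrays that the 2 comparisons do not share. With SRC-1 siRNA 9 members were higher and 5 lower, where 44.7% of all genes were called (24.6% higher and 20% lower). With control siRNA 7 were higher and 5 lower, where 45.2% of all genes were called (23.6% higher and 21.6% lower). At least 1.5-fold were HADH with SRC-1 siRNA, and HADH and SUCLG2 with control siRNA, where 14.8% of all genes were in either. By probe sets 20 of 65 were called with SRC-1 siRNA (23.4% of all) and 14 with control siRNA (24.1% of all). Without 1 array these counts went as low as 8 with SRC-1 siRNA (without replicate 2 of SRC-1 siRNA lacking glucose, 16.2% of all) and 9 with control siRNA (without replicate 1 of control siRNA lacking glucose, 15.8% of all). The count with SRC-1 siRNA was also below 20 without each of the remaining SRC-1 siRNA arrays in turn. The shares of all probe sets in those fits are not given here, so this is not read as particular to the members. Called in both were 7 higher members (CS, ACO1, SUCLA2, PC, CPT1A, HADH and ETFDH) and 4 lower ones (IDH1, ACADVL, ECI1 and DECR1). That is 20.6% and 11.8% of the members, where 20.6% of all genes were called higher with both siRNAs and 17.4% lower. HADH differed by 0.89 ± 0.073 with SRC-1 siRNA and by 0.76 ± 0.073 with control siRNA. CPT1A differed by 0.49 ± 0.091 with SRC-1 siRNA and by 0.54 ± 0.091 with control siRNA, and SUCLA2 by 0.47 ± 0.077 and 0.37 ± 0.077. ECI1 fell by 0.51 with SRC-1 siRNA and by 0.48 with control siRNA on the log2 scale. CPT2, OGDH and ACAD9 were called with SRC-1 siRNA alone, and SUCLG2 with control siRNA alone (-0.30 ± 0.13 with SRC-1 siRNA, adjusted p = 0.102, and -0.59 ± 0.13 with control siRNA, adjusted p = 0.00654). Of all genes 6.65% were called with SRC-1 siRNA alone and 7.18% with control siRNA alone, so these counts were close to those of genes in general. None of these differences between the siRNAs passed its own test. The interaction, the glucose effect with SRC-1 siRNA minus that with control siRNA, was called for 0 of 34 members in limma and for 0% of all genes, and 0 members had an unadjusted p below 0.05, as 3.42% of all genes did. The smallest p values belonged to CPT2 (0.21 ± 0.097), PC (0.21 ± 0.11), OGDH (0.20 ± 0.11), SUCLG2 (0.29 ± 0.19) and ACO1 (0.13 ± 0.10), all with an adjusted p of 0.999.

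Knockdown of SRC-1 was compared with control siRNA in each medium and over both. No enzyme of either pathway was called: 0 of 34 with glucose, 0 of 34 without and 0 of 34 over both media, where 0.00736%, 0.0221% and 0.0294% of all genes were called in limma. Before adjustment 3 members had p below 0.05 with glucose (5.75% of all genes did), 0 without glucose (3.19%) and 0 over both media (4.96%). By probe sets the counts were 0 of 65 with glucose (0.00973% of all probe sets), 0 without (0.00973%) and 0 over both media (0.0146%), with 5, 0 and 0 at an unadjusted p below 0.05. The median difference over both media was 0.012 for the members and 0.0087 for all genes. Every member's 95% interval over both media lay between -0.28 and 0.33, that is between 1.21-fold lower and 1.26-fold higher. This bounds the averaged change for each gene taken alone, on its brightest probe set. Within a single medium the intervals reached further, from -0.37 to 0.56 with glucose and from -0.41 to 0.37 without. Over all member probe sets they ran from -0.63 to 0.84 with glucose and from -0.72 to 0.61 without. The arrays of the 2 siRNAs overlapped for all 34 members, where 0.876% of all genes did not overlap.

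The members nearest to a knockdown difference were OGDH, CPT2, PC, ACADVL and DECR1, by p over both media. OGDH had a difference of 0.12 ± 0.055, CPT2 of 0.11 ± 0.048, PC of 0.12 ± 0.054, ACADVL of 0.10 ± 0.057 and DECR1 of 0.07 ± 0.045 (adjusted p = 1.00 for each). With glucose, CPT2 had 8.06 and 8.01 under SRC-1 siRNA and 7.84 and 7.80 under control siRNA (0.21 ± 0.068, adjusted p = 0.832, limma). OGDH had 7.37 and 7.41 under SRC-1 siRNA against 7.26 and 7.06 under control siRNA, and PC had 7.27 and 7.21 against 6.95 and 7.09. In these 3 genes both knockdown arrays with glucose lay above both control arrays, as they did in 11 of the 34 members (also ACO1, IDH2, SUCLG2, SUCLA2, ACADVL, HADHA, ETFB and ACAA1) and in 20.4% of all genes. They lay below in 2 members (IDH3B and ACAD9) and in 12.1% of all genes. ACAD9 alone among the members lay below with glucose and above without, as 3.83% of all genes lay on opposite sides in the 2 media. Without glucose the same genes differed by 0.00 ± 0.068 (CPT2), 0.02 ± 0.078 (OGDH) and 0.02 ± 0.076 (PC). HADH and CPT1A, which responded most to glucose, differed between SRC-1 siRNA and control siRNA by -0.01 ± 0.051 and -0.09 ± 0.064.

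With glucose, 29 of the 34 members had a difference above 0 under SRC-1 siRNA (57.6% of all genes did), with a median of 0.052 beside 0.016 over all genes. Without replicate 1 of control siRNA with glucose the count was 20 of 34, beside 53.5% of all genes, and without each of the other 7 arrays it lay between 25 and 29. That array had the lowest signal of the 4 arrays with glucose for members such as SUCLG2 (9.94), IDH2 (7.86), ETFB (10.17) and ETFA (12.01). It had the highest for IDH3B (10.85), IDH3G (9.37) and SLC25A20 (7.93). Without glucose 16 of 34 members had a difference above 0. The members share these arrays, so their signs are not independent of each other.

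**Figure D4:**
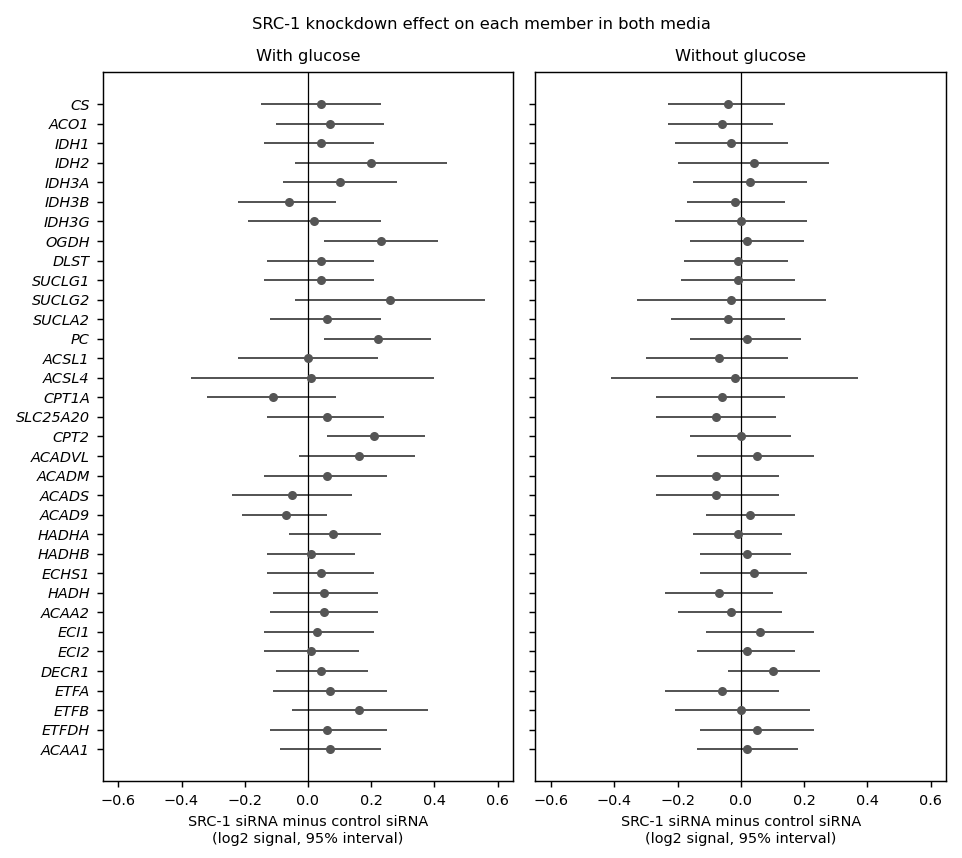
SRC-1 siRNA minus control siRNA (log2 signal) for the 34 enzymes with glucose (left) and without (right), points with 95% intervals. No gene was called in either medium, and with glucose 29 of 34 points lie above 0.

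A separate list of 92 gene symbols outside the 35 covered further enzymes and carriers of the TCA cycle and its feeders (25 in the fit), of fatty acid oxidation with branched-chain amino acid breakdown (29), and regulators such as pyruvate dehydrogenase kinases, acetyl-CoA carboxylases and transcription factors (20), 74 in all. Over both siRNAs 10 of the TCA cycle genes and feeders were higher with glucose and 5 lower, 10 of the oxidation genes were higher and 5 lower, and 10 of the regulators were higher and 4 lower, beside 29.5% of all genes called higher and 26.2% called lower. The 6 genes of the list with the smallest p were PCK2, PDK4, PDP1, CROT, ABCD3 and HIBADH. PDK4, a kinase that shuts pyruvate out of the cycle, averaged 10.20 with glucose and 8.29 without (1.92 ± 0.069), and PDP1, the phosphatase that reverses this, averaged 8.52 and 9.57 (-1.06 ± 0.052). CROT, which hands peroxisomal acyl groups to carnitine, averaged 8.84 with glucose and 7.92 without (0.92 ± 0.064). ABCD3, a peroxisomal importer of acyl-CoA, averaged 11.09 and 10.18 (0.91 ± 0.067). PCK2, the mitochondrial enzyme that turns oxaloacetate into phosphoenolpyruvate, was lower at 7.68 with glucose and 9.89 without (-2.21 ± 0.045), as was HIBADH of valine breakdown at 9.15 and 9.91 (-0.77 ± 0.058). These 6 genes were called in each siRNA as well, and SRC-1 knockdown over both media called 0 of the 74.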

How the data were processed

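Biotin-labelled RNA was hybridized to 8 Affymetrix 3' arrays, per the labels' protocols. The deposited table holds log2 values per probe set for all 8 arrays, between 1.98 and 14.7 with 0 missing. No source states the log base; it was read from hybridization spikes, whose neighbours stood 1.94, 2.00 and 1.87 units apart. Array medians lay between 4.97 and 5.01. The authors' background correction, probe summary and normalization are not given in the sources used here. Scanner files and detection calls were not used here.

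Gene names came from the platform annotation (of 54675, 62 were controls, 41091 had 1 gene, 1801 several and 11721 were not listed); 41037 of those with 1 gene matched RefSeq (GRCh38.p14) by Entrez identifier and 0 symbols changed. Those with a mean below the 40th percentile (log2 4.80) were left out, the brightest was kept for each gene, and all 34 measured members passed. Groups and replicate numbers came from sample titles. All 8 arrays entered a limma 3.58.1 fit in R 4.3.3 with a mean per group, 4 residual and 4.35 prior degrees of freedom, moderated two-sided tests and Benjamini-Hochberg adjustment over 13584 genes. A second fit took all 41091 probe sets. The median SE was 0.0590 for averaged effects and 0.0834 for those of 2 arrays against 2. A permutation of 2 arrays against 2 cannot go below p = 0.333. On simulated arrays of 13584 genes with 200 changed, the averaged glucose effect recovered 48.5% of 1.2-fold and 99.7% of 1.5-fold changes, and the averaged knockdown effect 52.2% and 99.6%. In the data 7565 genes were called for averaged glucose and 4 for averaged knockdown. The p that passes adjustment depends on how many genes change, so these shares do not give the recovery in the data.

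Members and lists were chosen with earlier results of these data known. Every member is given; array values are printed for the 12 largest called glucose effects without overlap and for the 5 smallest p of the averaged knockdown and of the interaction. The 6 other pathway genes have the smallest p, and promoters and the members cited for 1 array were picked after values were seen. Alternatives covered scaling, filters, probe sets, the prior, array weights, a replicate block and each array left out.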

Additional observations from a re-analysis of the deposited data

Results flagged for a closer look

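ACAD9, the acyl-CoA dehydrogenase that also serves complex I assembly, was picked out because its knockdown arrays lay on opposite sides of their controls in the 2 media. Its difference between SRC-1 siRNA and control siRNA was -0.07 with glucose and 0.03 without. Both knockdown arrays were below both control arrays with glucose (8.60 and 8.57 against 8.66 and 8.67) and above them without (8.77 and 8.77 against 8.74 and 8.73). The interaction was not called (-0.10 ± 0.085, adjusted p = 0.999, limma), and neither knockdown difference was. Of the 34 members it alone had this pattern, which 3.83% of all genes had, and groups of 2 arrays were too small to look for single arrays that lie apart.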

How the results depend on the processing

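For glucose over both siRNAs, 14 of the 17 called members kept their call under every alternative in which they were measured. OGDH lost it with the mean of its probe sets, ACAD9 in 10 settings and ACAA2 in 12. Over all 17 alternatives the difference of ACAA2 ran from -0.18 to 0.07. Conversely 8 members not called were called in some setting (IDH2, IDH3A, ACADM, ACADS, ECHS1, ETFB, ACAA1 and ACSL1), and the count of 17 became 19 with the mean of probe sets and 20 with the trended prior. The shares of all genes called in those settings are not given here, so the rise is not read as particular to the members. The 12 glucose effects given array by array for their size kept direction and call in 198 of 198 recomputations. The 10 knockdown and interaction effects, none of them called, stayed uncalled in all 166. The 12 had been chosen as called without overlap, and all recomputations drew on the same 8 arrays, so neither count is independent support. Without probe sets ending in _s_at or _x_at only 22 members were left. Of these, 10 were called over both siRNAs (54% of all genes), 10 with SRC-1 siRNA (42.6%) and 6 with control siRNA (42.9%). Of the 17 called members 8 were not measured there: ACO1, IDH3G, SUCLG2, SUCLA2, PC, ACAD9, HADH and ECI1. The largest rise, HADH, and the largest fall, ECI1, were thus not checked in that setting. With at least 1.5-fold, 1 member was called over both siRNAs (14.5% of all genes) and 1 with SRC-1 siRNA (14.8%), HADH in each. With control siRNA 2 members were called, HADH and SUCLG2 (14.8% of all genes). Leaving out 1 array in turn gave 15 to 17 called members over both siRNAs (51% to 53.9% of all genes), 10 to 15 with SRC-1 siRNA (35.1% to 44.7%) and 8 to 12 with control siRNA (35.1% to 44.9%). The lowest were without replicate 2 of SRC-1 siRNA without glucose (10) and without replicate 1 of control siRNA without glucose (8), and a lone array was then taken to vary like the other groups. For probe sets the ranges were 22 to 28 (28.1% to 31.8% of all), 8 to 20 (15.7% to 23.6%) and 9 to 15 (15.8% to 23.5%). No alternative called a member for knockdown or interaction. The replicate block gave 16, 13 and 12 called members (55.6%, 44.1% and 44.7% of all genes). The labels do not say whether replicate numbers pair the arrays. The deviations of the replicates correlated between -0.10 and 0.12 across groups, which shows no strong shared deviation but cannot settle pairing. Without detection calls, the distance of dim members such as ACADS from background is not known. The count of members above 0 without each array was added after seeing the data.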
